A study of Mus musculus with 22 samples.

Results

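Non-phagocytic retinal microglia lacking apolipoprotein E were compared with wild-type microglia of the same sort, which gave 11 of the 22 RNA-seq libraries of the study: 5 wild-type and 6 Apoe-/- libraries, chosen by their labelled genotype and sort. All mice were 12 weeks old, and all had received apoptotic neurons by intravitreal injection, the wild-type mice included, so no group shows the uninjected retina. The wild-type strain was C57BL/6. The other strain is labelled only as Apoe KO, with the genotype Apoe -/-, and neither the mutant allele nor the strain it was bred on is named. Each library came from a pool of 5 to 6 retinas of one sex and genotype, from which CD11b+, Ly6c-, Fcrls+ cells were sorted. Cells without the Alexa488 label of the injected neurons formed the non-phagocytic sort, and the labelled cells the phagocytic sort. The comparison asks which transcripts differ with the genotype in microglia that had not taken up labelled neurons.

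Apolipoprotein E (ApoE) is a secreted carrier of cholesterol and phospholipid that is loaded with lipid by the transporters ABCA1 and ABCG1 and taken up through lipoprotein receptors. In the brain and retina it is made by astrocytes and Mueller glia, and by microglia that respond to injury or to dying neurons. In such microglia, ApoE and the receptor TREM2 are known for driving the disease-associated or neurodegenerative (MGnD) state, in which homeostatic genes such as P2ry12 and Tmem119 are lowered and genes such as Clec7a, Itgax and Spp1 are raised.

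Of 12415 genes tested in the non-phagocytic sort, 2 changed (0.0161%), and both fell: Apoe itself and Slc1a5, the neutral amino acid transporter through which cells take up glutamine. Apoe fell by 6.86 ± 0.43 (SE) and Slc1a5 by 3.33 ± 0.43 on the log2 scale. None of the MGnD genes other than Apoe, and none of the homeostatic, cholesterol, lysosome, interferon or antigen presentation genes examined, passed the test. Tests used edgeR (quasi-likelihood F test, p adjusted over all 12415 genes by Benjamini-Hochberg), and a gene is called changed, risen or fallen only at an adjusted p under 0.05. Levels are in CPM, the reads of a gene per 1000000 reads of the scaled library, differences are Apoe-/- over wild type on the log2 scale with their standard error, and intervals are 95% intervals. The labels do not say that the pools were prepared independently beyond holding different retinas, so these p-values measure the spread between pools.

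The libraries held 1497491 to 2294827 reads in genes in the wild type and 1671145 to 3129976 in the Apoe-/- group, with 16547 to 21776 genes detected. Reads in 12 satellite-like repeat genes took 9.14% to 28.4% of the wild-type and 17.0% to 51.7% of the Apoe-/- libraries, highest in Apoe-/- pools 2 and 5 (51.7% and 47.6%). The genotypes did not separate in this share (20.4% ± 9.95 (SD, n = 5) against 29.9% ± 15.5 (n = 6), two-sided exact permutation p = 0.292, 0.766 after adjustment over 4 library measures). Pairs of libraries from different genotypes were about as alike as pairs from one genotype: the median correlation of log2 CPM across genes was 0.861 over 30 mixed pairs, 0.869 over 10 wild-type pairs and 0.849 over 15 Apoe-/- pairs. Apoe-/- pool 2 was the least like the others (mean correlation 0.783), followed by wild-type pool 4 (0.830) and Apoe-/- pool 5 (0.834), against 0.852 to 0.869 for the remaining pools. Wild-type pool 4 had the lowest microglial and the highest monocyte and rod marker levels of its group. The sex of a pool is not given. Ddx3y and Eif2s3y, both on the Y chromosome, were at 22.4 to 47.3 CPM in 4 wild-type pools and 13.4 to 46.9 CPM in Apoe-/- pools 1 to 3, and at 0 to 1.73 CPM in wild-type pool 5 and Apoe-/- pools 4 to 6. The other Y-linked genes did not split the pools in this way: Kdm5d was at 35.5 to 51.5 CPM in the wild type and 26.1 to 81.5 CPM in Apoe-/-, and Uty at 9.69 to 31.4 and 5.41 to 32.1 CPM.

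Apoe checks the genotype labels. The gene lies at chr7:19696109-19699188 on the minus strand (GRCm38). Its level was 869, 1604, 1258, 906 and 1227 CPM in the 5 wild-type libraries, against 7.02 (lowest), 9.0 (median) and 17.6 CPM (highest) in the 6 Apoe-/- libraries. The groups were far apart in every pool, and no library went against its label. The log2 difference was -6.86 ± 0.43 (95% interval -7.74 to -5.98, edgeR with Benjamini-Hochberg adjustment, adjusted p = 5.47e-11). Transcript Apoe-209 carried 70.0% of the wild-type Apoe reads (9384 reads), Apoe-201 14.1% (1887 reads, with none in wild-type pool 5) and Apoe-202 12.3% (1654 reads). The Apoe-/- libraries had 0 reads of Apoe-201 and of Apoe-202. Their remaining reads were given to Apoe-209 (54 reads, all in pools 1 to 4), Apoe-205 (19 reads), Apoe-206 (19 reads), Apoe-207 (4 reads) and the intron-retaining Apoe-211 (22 reads). Apoe-209 was at 813 ± 243 (SD, n = 5) against 4.78 ± 3.99 CPM (n = 6; two-sided exact permutation p = 0.00216, the smallest possible here, and 0.00649 after adjustment over 9 transcripts of Apoe, Slc1a5, C5ar2 and Apoc2, chosen after their values were seen). Apoe-211 was at the same low level in both genotypes, 1.84 ± 1.70 CPM in the wild type and 2.05 ± 1.65 CPM in Apoe-/- (exact permutation p = 0.838).

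Slc1a5 (ENSMUSG00000001918.17, chr7:16781340-16798274, plus strand, GRCm38) encodes ASCT2, a plasma membrane exchanger of glutamine and other neutral amino acids, and lies 2.91 Mb from Apoe on the same chromosome. It was at 116, 89.4, 106, 108 and 83.2 CPM in the wild-type libraries and at 2.52 (lowest), 9.58 (median) and 20.2 CPM (highest) in the Apoe-/- libraries. The lowest wild-type pool stood well above the highest Apoe-/- pool. The means were 100.5 ± 13.6 (SD, n = 5) and 10.1 ± 6.05 CPM (n = 6), 9.95-fold lower in Apoe-/-. The log2 difference was -3.33 ± 0.43 (95% interval -4.22 to -2.44, edgeR with Benjamini-Hochberg adjustment, adjusted p = 0.000234). Leaving out any one library gave -3.58 to -3.14 (adjusted p = 0.000137 to 0.00183). An alternative chosen after seeing the data kept the 4 wild-type and 3 Apoe-/- non-phagocytic pools with at least 10 CPM of Ddx3y and Eif2s3y together. All phagocytic libraries stayed in that fit, whatever their level of these genes. The difference was then -2.98 with an adjusted p of 0.157 with edgeR, and Apoe was the only gene called. With the level of those Y-linked genes as a covariate, also chosen after seeing the data, Slc1a5 was at -3.15 and still called by edgeR (adjusted p = 0.000481). With limma on log2(FPKM + 0.1) of the authors' FPKM values it was at -3.33 and not called (adjusted p = 0.621).

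The loss was uneven between the annotated transcripts of Slc1a5. The transcript with most wild-type reads, Slc1a5-202, is annotated as non-coding because it keeps the intron between exons 7 and 8 of the 9-exon coding transcript Slc1a5-201. That intron, 71 bases at chr7:16795953-16796023 (GRCm38, plus strand, 66.2% G and C), is printed because most of the difference in reads was assigned to the transcript that holds it. Capitals mark the intron and lower case the 30 bases of exon on each side, 5′ to 3′, chr7:16795923-16796053, from the GENCODE transcripts. The intron was chosen after its values were seen, and it starts with GT and ends with AG.
Slc1a5-202 intron: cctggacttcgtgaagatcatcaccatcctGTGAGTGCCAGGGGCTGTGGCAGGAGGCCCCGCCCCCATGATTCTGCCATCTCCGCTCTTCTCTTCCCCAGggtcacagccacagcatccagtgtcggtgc
Slc1a5-202 took 60.9% of the wild-type Slc1a5 reads, 128, 147, 168, 93 and 121 reads in pools 1 to 5, or 62.1 ± 16.4 CPM (SD, n = 5). In the Apoe-/- group it had 11 reads, all in pool 3, and was at 0 in the other 5 pools. The coding Slc1a5-201 had 29, 78, 113, 96 and 58 reads in the wild-type pools against 15, 23, 15, 14, 2 and 35 in the Apoe-/- pools. It was at 33.8 ± 13 CPM (20.4 to 52.0) in the wild type and 8.66 ± 6.07 CPM (1.26 to 19.3) in Apoe-/-, 3.90-fold lower, with groups that did not overlap. The coding transcript was thus still read in every Apoe-/- pool, and the one with the intron in 1 of 6. Both transcripts had the smallest exact permutation p possible (0.00216, adjusted 0.00649 over the 9 transcripts). The transcripts are 2764 and 2807 bases long and share all but the intron and 28 bases found only in Slc1a5-201, so only reads over those bases separate them, and the other reads were divided by the authors' quantification. Among 24 amino acid transporter genes, Slc1a5 was the only one called. The others had log2 differences up to 0.72, with Slc7a11, the cystine importer, at 0.62 ± 0.42, Slc38a6 at 0.48 ± 0.27 and Slc7a7, an exporter of cationic amino acids, at -0.42 ± 0.23. The median of the list was 0.01, beside -0.002 over all genes tested.

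**Figure D1:**
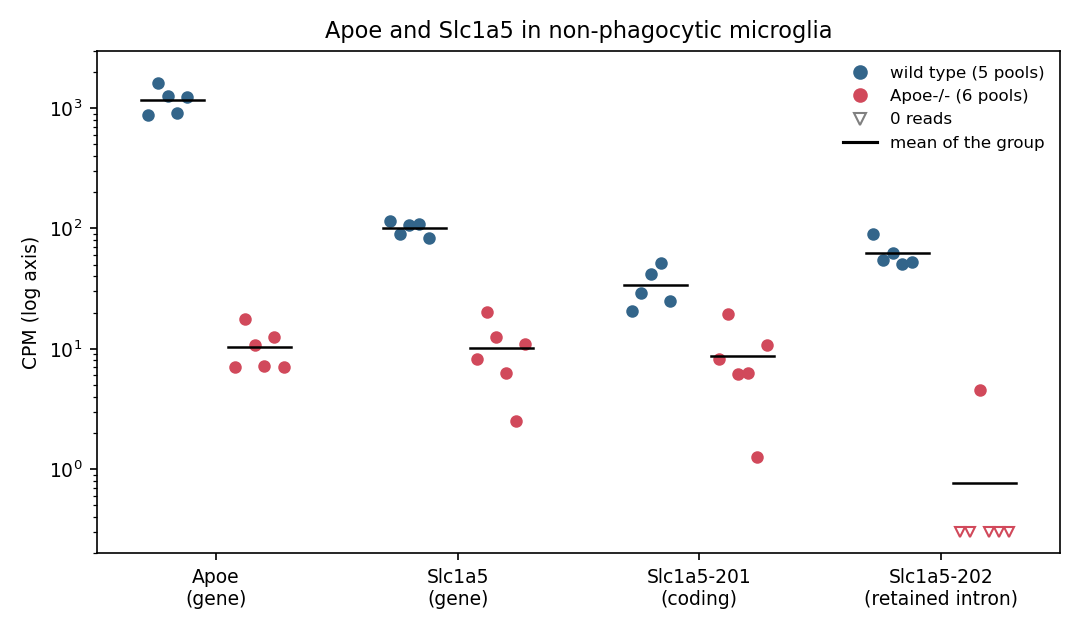
CPM (log axis) of Apoe, of Slc1a5 and of the coding and intron-retaining transcripts of Slc1a5, with 1 point per pool, a line at the group mean and open triangles for 0 reads. The Apoe-/- pools lie below every wild-type pool for Apoe (at most 17.6 against at least 869 CPM) and Slc1a5 (at most 20.2 against at least 83.2 CPM), and for the intron-retaining transcript 5 of 6 Apoe-/- pools are at 0.

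No gene rose (0 called higher by edgeR, and 0 by DESeq2). At an unadjusted p under 0.05, 221 genes were higher (1.78%) and 251 lower (2.02%) in Apoe-/-. Without a filter on low counts 16 genes were called, 3 of them higher (Il12b, the scavenger receptor Marco and the predicted Gm17131). In that setting 3083 of 32368 genes had an unadjusted p under 0.05 with edgeR, against 472 of 12415 in the reported fit. Small p-values were thus more common there, and Slc1a5, at a similar -3.35, had an adjusted p of 2.97e-14. Genes called in that setting alone are not counted as changed. The gene after Apoe and Slc1a5, Gm1840, a processed pseudogene named after its values were seen, had 0 or 1 read in each wild-type and 3 to 13 in each Apoe-/- library (3.57 ± 0.79) and an adjusted p of 0.483 with edgeR. Across all genes 49.7% of differences were positive. The groups of libraries did not overlap for 13 genes with higher values in Apoe-/- (0.105%) and for 24 with lower values (0.193%). The precision of a difference depended on the level. The median half-width of the 95% interval was 1.36 (log2) for 3070 genes under 10 CPM, 0.785 for 4076 genes at 10 to 30 CPM, 0.532 for 3816 genes at 30 to 100 CPM, 0.436 for 1087 genes at 100 to 300 CPM and 0.461 for the 366 genes at 300 CPM or more. The interval lay within 1 of zero, less than a doubling or halving, for 83.9% of genes at 30 to 100 CPM and 82.0% of genes at 300 CPM or more, but for 2.12% of genes under 10 CPM. Above 100 CPM the intervals narrowed no further. Smaller shifts could thus be missed in these pools, and for genes at low level all but large shifts could be.

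**Figure D2:**
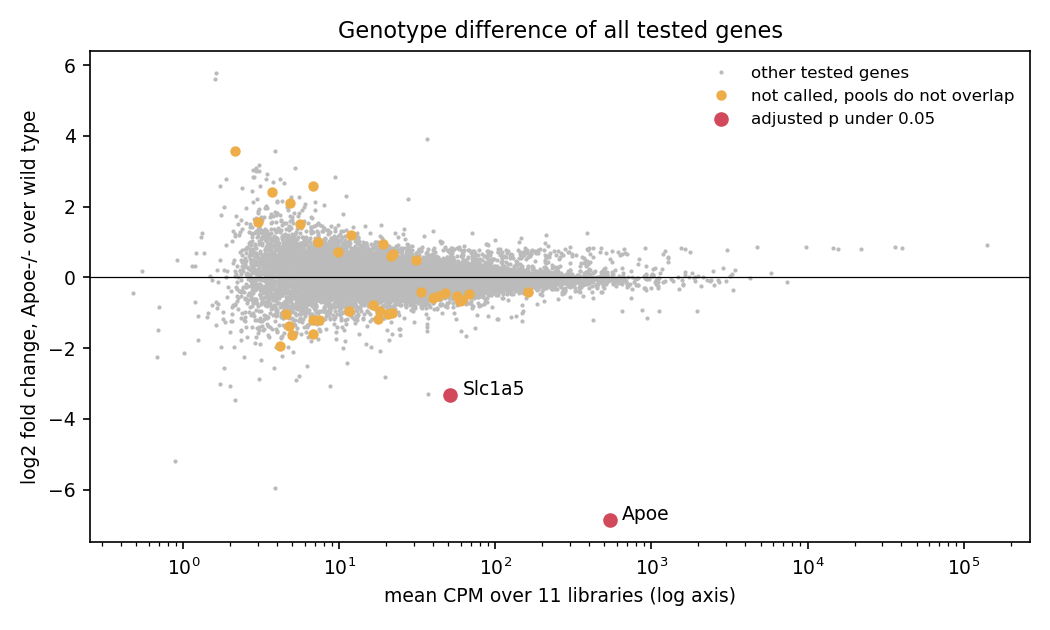
Log2 difference of Apoe-/- over wild type (y axis) against mean CPM over the 11 pools (x axis) for the 12415 genes tested, with uncalled genes whose pools do not overlap in orange. Apoe (-6.86) and Slc1a5 (-3.33) are the called genes and lie below the cloud, which centres on zero.

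Genes that lie beside Apoe on chromosome 7 were examined next, by distance from Apoe. Among 33 tested genes within 1 Mb, 6 were lower (18.2%) and 2 higher (6.06%) at an unadjusted p under 0.05, and none was called. Within 5 Mb, 11 of 87 genes were lower (12.6%), Slc1a5 among them, and 6 higher (6.90%). Within 10 Mb, 6.31% of 222 genes were lower and 3.60% higher. On the remainder of chromosome 7 beyond 20 Mb, 1.05% of 667 genes were lower and 2.40% higher, and on the other chromosomes 1.99% and 1.71% of 11375 genes. Both shares were larger near Apoe than on the other chromosomes, and the median difference within 1 Mb was 0.04. These shares describe the region and were not tested.

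Within the apolipoprotein cluster around Apoe, Apoc2, which activates lipoprotein lipase, was at 28.2, 2.24, 8.57, 71.6 and 62.8 CPM in the wild type and 0 to 17.8 CPM (median 13.1) in Apoe-/-. Its wild-type pools ranged widely, 2 of them lay below the highest Apoe-/- pool, and the difference of -1.61 ± 0.67 did not pass the test. Apoc4, the next apolipoprotein gene, was at 26.3 ± 7.93 CPM in the wild type and 34.5 ± 9.54 CPM in Apoe-/- (log2 difference 0.39 ± 0.27). Tomm40, a subunit of the mitochondrial import pore next to Apoe, differed by -0.40 ± 0.30, and the adhesion gene Nectin2 by -0.01 ± 0.39. Ercc2, a DNA helicase of transcription and excision repair, was at 26.1, 29.2, 25.7, 28.7 and 41.6 CPM in the wild type and 5.03 to 24.1 CPM (median 15.4) in Apoe-/-. Its groups did not overlap, yet the difference of -1.01 ± 0.42 was not called. The NF-kB subunit gene Relb was at -0.77 ± 0.32, with 5 of 6 Apoe-/- pools below the lowest wild-type pool. On the other side, Pvr, the poliovirus receptor homologue, was at 18.6 ± 8.47 CPM in the wild type and 35 ± 14.4 CPM in Apoe-/- (0.92). Trappc6a, a vesicle tethering factor, was at 11.7 ± 5.16 and 20.9 ± 4.83 CPM (0.86). Tomm40, Nectin2, Pvr and Trappc6a were chosen after their values were seen. Neighbours of Apoe thus had values on both sides, and none passed the test.

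C5ar2, a receptor for the complement fragment C5a, lies 3.46 Mb from Apoe and was chosen after its values were seen. It was at 25.4, 54.2, 45.1, 22.2 and 9.97 CPM in the wild type and 4.27 to 14.4 CPM (median 6.67) in Apoe-/-. In 5 of 6 Apoe-/- pools it was below the lowest wild-type pool. The difference was -2.09 ± 0.51 (unadjusted p = 0.000358 with edgeR, not called). It was called only without a filter on low counts (edgeR, adjusted p = 0.00518), where small p-values were more common throughout. Its transcript C5ar2-201 had 218 reads, all of them in wild-type pools 2 and 3, and 0 in the Apoe-/- pools (exact permutation p = 0.182). C5ar2-202 was at 15.2 ± 7.96 CPM in the wild type and 7.34 ± 3.75 CPM in Apoe-/- (p = 0.0563, exact permutation). Beside it lies Inafm1, a small gene also chosen after its values were seen, at 6.86 ± 1.90 CPM in the wild type and 2.01 ± 2.30 CPM in Apoe-/- (-1.70).

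**Figure D3:**
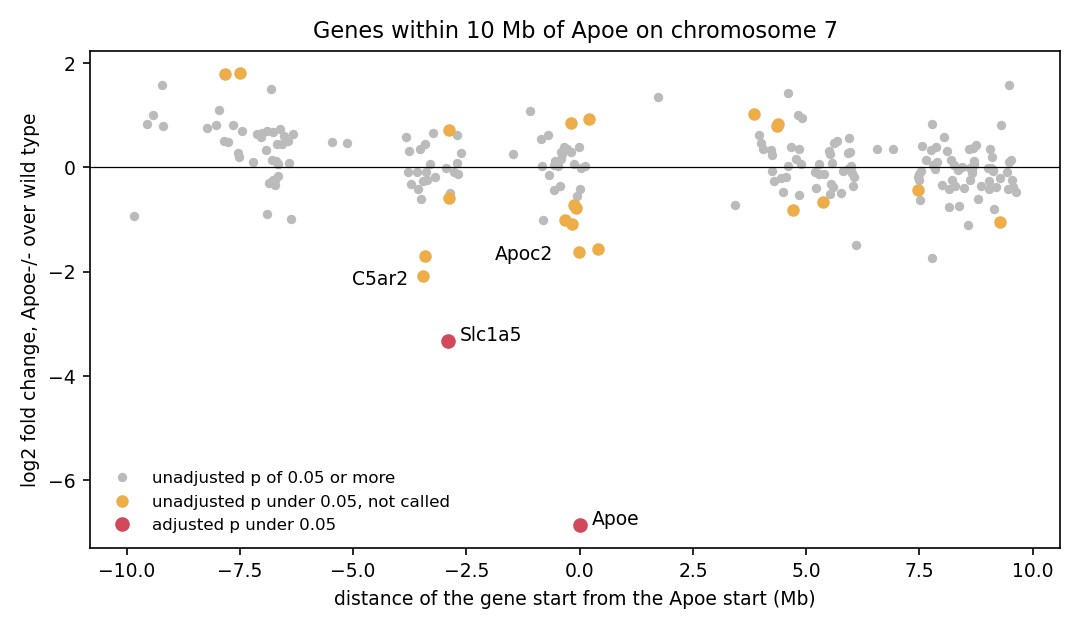
Log2 difference (y axis) of each tested gene within 10 Mb of Apoe by the distance of its start from that of Apoe (x axis, Mb), with genes at an unadjusted p under 0.05 in orange and called genes in red. Apoe lies at 0 and Slc1a5 at 2.91 Mb to its left, below all other genes shown.

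Genes of the MGnD state were read in the same libraries. Apart from Apoe, none of the 37 MGnD genes was called, 15 of the 37 had positive differences, and the median was -0.08. Trem2, the lipid-sensing receptor, was at 389, 624, 509, 142 and 242 CPM in the wild type and 268 to 613 CPM (median 329.8) in Apoe-/-. All Apoe-/- pools lay inside the wild-type range, and the difference was 0.01 ± 0.36 (95% interval -0.72 to 0.75). Its adaptor Tyrobp differed by -0.20 ± 0.21 and the beta-glucan receptor Clec7a by -0.14 ± 0.25 (192, 158, 297, 217 and 239 CPM against 94.1 to 259 CPM, median 211). The intervals of both lay within 1 of zero. Axl, a receptor for phosphatidylserine-bridging ligands, was at -0.18 ± 0.29.

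The lowest differences among the MGnD genes came with wide ranges among the wild-type pools. Spp1, which encodes osteopontin, was at 123, 87.1, 126, 196 and 550.3 CPM in the wild type and 60.1 to 145 CPM (median 88.0) in Apoe-/-. Pool 5 was far above the other wild-type pools. The difference of -1.23 ± 0.60 (95% interval -2.47 to 0.02) was -0.52 without that pool and -1.40 without wild-type pool 2. Gpnmb, a lysosome-associated glycoprotein, was at 7.75, 24.3, 0.373, 7.59 and 49.8 CPM against 0 to 12.5 CPM (median 3.46). Its difference of -1.79 ± 0.83 was -0.96 without wild-type pool 5 and -2.21 without Apoe-/- pool 1. Lgals3, which encodes galectin-3, was at 132, 26.9, 48.1, 311 and 110.5 CPM against 50.9 to 88.7 CPM (median 70.7), a difference of -0.84 ± 0.40, with every Apoe-/- pool inside the wild-type range. Without wild-type pool 4 the difference was -0.17, and without wild-type pool 2 it was -1.07. Itgax, which encodes CD11c, was at 236 CPM in wild-type pool 4 and at 58.7 to 97.1 CPM in the other wild-type pools. In Apoe-/- it was at 23.5 to 91.3 CPM (median 78.9). Its difference of -0.58 ± 0.39 was -0.08 without wild-type pool 4 and -0.71 without wild-type pool 2. Lyz2, the lysozyme gene, was at 1027, 678, 768, 3207 and 1030.4 CPM against 238 to 1093 CPM (median 592), a difference of -1.15 ± 0.37, and 5 of 6 Apoe-/- pools lay below the lowest wild-type pool. Cst7, a cystatin raised in the MGnD state, was the list's highest at 0.77 ± 0.35: 19.7, 40.0, 37.3, 33.6 and 44.6 CPM against 33.9 to 102 CPM (median 54.1), with 5 of 6 Apoe-/- pools above the highest wild-type pool. The adjusted p of each of these 6 genes, with edgeR and Benjamini-Hochberg adjustment, was 0.999.

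Homeostatic genes varied strongly between pools of one genotype, and none of 36 was called. The median difference was -0.03, with 13 positive, and both turned with single pools: without wild-type pool 4, 4 of the 36 homeostatic microglia genes were positive (median -0.21), and without wild-type pool 2, 32 were (median 0.17). P2ry12, the purinergic receptor of resting microglia, was at 236, 502, 421, 63.4 and 155 CPM in the wild type and 182 to 516 CPM (median 284) in Apoe-/- (0.21 ± 0.49). Tmem119, a microglial surface gene, was at 1036, 1946, 1909, 355 and 735 CPM against 602 to 1523 CPM (median 955), a difference of -0.24 ± 0.43. Cx3cr1, the fractalkine receptor, was at 1337, 2713, 2672, 937 and 1750.1 CPM against 1056 to 2388 CPM (median 1981). Its interval of -0.59 to 0.58 around -0.01 leaves out a doubling and a halving. Fcrls, whose protein was used in the sort, was at -0.31 ± 0.43. For these genes wild-type pools 2 and 3 were the highest of their group and pool 4 the lowest, and the Apoe-/- pools fell between, with 1 pool below for Fcrls and 1 above for P2ry12. In pooled, sorted cells fewer cells of a type and less RNA per cell cannot be told apart.

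**Figure D4:**
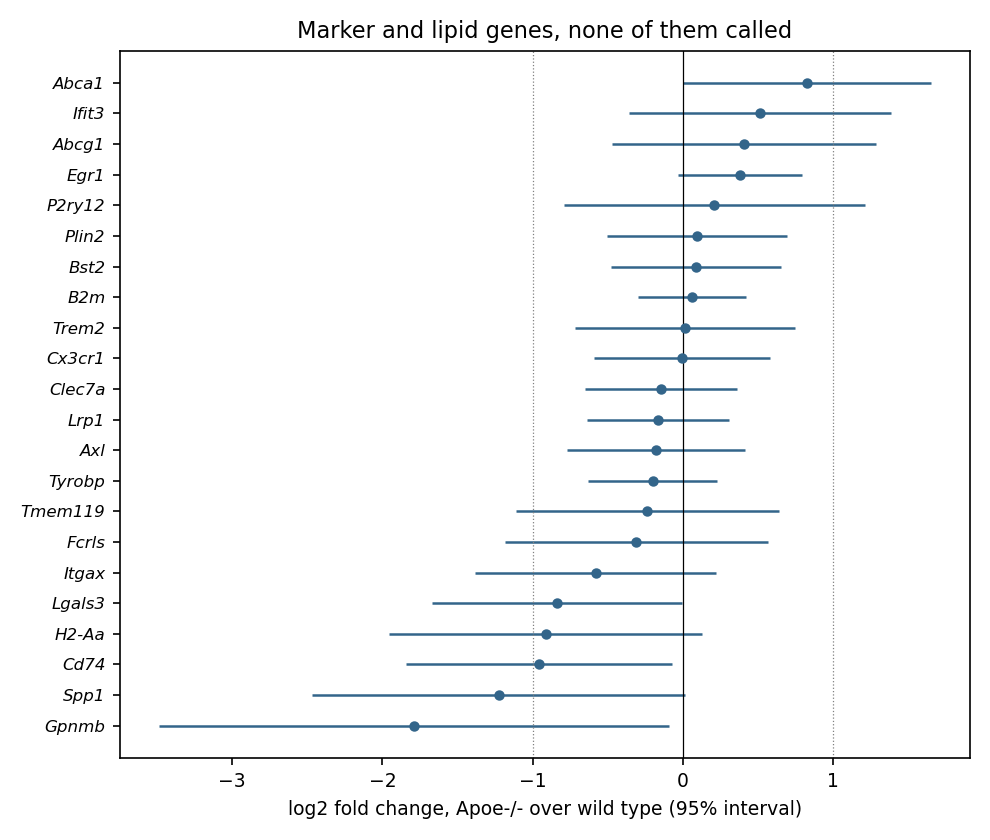
Log2 difference (x axis) with its 95% interval for 22 key genes other than Apoe and Slc1a5, ordered by value, with dotted lines at a doubling and a halving. None was called, 9 differences were positive and 13 negative, and 10 intervals lay within 1 of zero.

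Genes that handle lipid were grouped by step. Of 19 tested apolipoproteins and lipoprotein receptors other than Apoe, none was called, 10 were positive and the median was 0.01. Lrp1, an endocytic receptor that binds ApoE particles, differed by -0.17 ± 0.23. Among 18 targets of the sterol-sensing liver X receptors (LXR), 7 were positive and the median was -0.14. Abca1, which loads lipid onto apolipoproteins, was at 24.7, 29.9, 44.7, 46.6 and 53.7 CPM in the wild type and 20.7 to 116 CPM (median 76.4) in Apoe-/-. In 4 of 6 Apoe-/- pools it was above the highest wild-type pool and in 1 below the lowest. The difference of 0.83 ± 0.40 had an interval of 0.00 to 1.65 and was not called (adjusted p = 0.999, edgeR with Benjamini-Hochberg adjustment). Its partner Abcg1 was at 0.41 ± 0.43 (0.96 without wild-type pool 4 and 0.26 without wild-type pool 2). Scd2, a fatty acid desaturase in the same list, was at -0.59 ± 0.24.

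Of 26 tested cholesterol synthesis genes none was called, 8 were positive, and the median was -0.22. The demethylase Cyp51 was at -0.50 ± 0.37 and Insig1, which holds the sterol sensor in the endoplasmic reticulum, at -0.52 ± 0.36. In the list of 24 lipid droplet and fatty acid genes the median was -0.06, with the droplet coat gene Plin2 at 0.09 ± 0.29, Dgat2, which completes triglyceride synthesis, at -1.20 ± 0.66 and the triglyceride lipase Pnpla2 at -0.64 ± 0.33. None of the 24 passed the test.

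Genes of engulfment and degradation came next. None of 42 lysosome genes was called, 14 were positive, and the median was -0.09. Without Apoe-/- pool 1, 7 were positive (median -0.16), and without Apoe-/- pool 2, 24 were (median 0.01). For 39 of the 42 the 95% interval lay within 1 of zero. Atp6v1a, a subunit of the proton pump that acidifies lysosomes, was at 58.5, 56.5, 75.3, 81.3 and 64.6 CPM in the wild type and 77.3 to 106 CPM (median 96.7) in Apoe-/-. In 5 of 6 Apoe-/- pools it was above the highest wild-type pool, and the difference of 0.49 ± 0.21 was not called. None of 31 tested engulfment and efferocytosis genes was called, the median was -0.09, and 27 intervals lay within 1 of zero. Among 21 genes of TGF-beta signalling, the pathway that maintains the homeostatic state, the median was -0.16. Tgfbi, a matrix protein induced by that pathway, differed by -1.21 ± 0.47 and was not called. It was at 525, 210, 221, 1471 and 616 CPM in the wild type, against 93.3 to 426 CPM (median 293) in Apoe-/-. Wild-type pool 4 was far above the others, and 2 of 6 Apoe-/- pools lay below the lowest wild-type pool.

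Immune genes were examined by programme. None of 37 type I interferon response genes was called, 25 were positive, and the median was 0.17. The viral RNA sensor Ifih1 was at 14.8, 28.0, 17.1, 37.4 and 18.2 CPM in the wild type and 26.0 to 56.0 CPM (median 40.3) in Apoe-/- (0.80 ± 0.32), and the antiviral GTPase Mx1 was at 0.86 ± 0.39. The interferon-induced genes Ifit3 and Bst2 differed by 0.51 ± 0.42 and 0.09 ± 0.27. The direction of the list turned with the libraries used. Without wild-type pool 4, whose list sum was the group's highest (3939 CPM against 1563 to 2936 CPM in the other wild-type pools), 36 of 37 were positive and the median was 0.46. Without wild-type pools 4 and 5, which had the highest list sums of their group, all 37 were positive and the median was 0.82. Leaving out the highest wild-type pools had to raise the difference. With the pools that held at least 10 CPM of Ddx3y and Eif2s3y, 16 of 37 were positive and the median was -0.05. With log2(TPM + 1) values, 12 of 37 were positive and the median was -0.09, where all genes had shifted to a median of -0.29.

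Inflammatory cytokine and NF-kB genes had a median of 0.15, with 20 of 32 positive and none called. Il12b, which encodes the shared p40 chain of interleukins 12 and 23, had the largest positive difference of the list. It was at 3.52, 1.5, 1.49, 5.42 and 9.10 CPM in the wild type and 0.415 (lowest), 49.0 (median) and 191 CPM (highest) in Apoe-/-. In 5 of 6 Apoe-/- pools it was above every wild-type pool, and in the other it was below all of them. The difference of 3.91 ± 1.29 had an unadjusted p of 0.00544 with edgeR and was not called. It was called only without a filter on low counts, where small p-values were more common throughout. Il6 was at 0 to 6.07 CPM in the wild type and 0 to 49.7 CPM (median 15.5) in Apoe-/-, above the highest wild-type pool in 4 of 6 (2.31 ± 1.00). The neutrophil chemokine gene Cxcl3 was at 49.6 CPM in Apoe-/- pool 2, and its median in that group was 1.03 CPM. Without Apoe-/- pools 2 and 5, which had the highest share of satellite-like reads, 15 of 32 genes of the list were positive and the median was -0.03. The part of these pools in the result was not tested further. The early-response transcription factor Egr1 differed by 0.38 ± 0.20.

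Antigen presentation by MHC class II was the immune list with the lowest median, -0.50, with 3 of 14 positive and none called. Cd74, the invariant chain, was at 1157, 528, 352, 3646 and 1929 CPM in the wild type and 398 to 1198 CPM (median 779) in Apoe-/-. Its difference of -0.96 ± 0.43 was -0.34 without wild-type pool 4 and -1.18 without wild-type pool 3. H2-Aa, a class II alpha chain, was at 901, 254, 276, 2696 and 1679 CPM against 339 to 837 CPM (median 620.2). Its difference of -0.91 ± 0.51 was -0.33 without wild-type pool 4 and -1.14 without wild-type pool 2. Ciita, the transactivator of class II genes, was at 66.2, 10.8, 9.32, 319 and 165 CPM against 29.6 to 79.1 CPM (median 34.6), a difference of -1.43 ± 0.69. For all 3 genes the Apoe-/- pools lay inside the wild-type range, and wild-type pools 4 and 5 were the highest. The same pools had the highest dendritic cell marker sums, 1016 and 912 CPM against 221 to 299 CPM in the other wild-type pools and 242 to 495 CPM in Apoe-/-. Without pools 4 and 5 the sign turned: 10 of 14 class II genes were positive and the median was 0.28. Leaving out the highest pools of 1 group had to raise the difference, so this turn is no test of their part in the class II values. MHC class I genes had a median of -0.06 over 19 genes, with 17 intervals within 1 of zero, and B2m, the class I light chain, was at 1604 ± 155 CPM in the wild type and 1673 ± 360.2 CPM in Apoe-/- (0.06 ± 0.17). Of 15 complement genes 3 were positive, and the median was -0.19. The properdin gene Cfp (-1.19 ± 0.52) and C3 (-1.17 ± 0.55) were the lowest of them and were not called. Cfp was at 23.2 to 406 CPM in the wild type and 31.1 to 118 CPM in Apoe-/-, all inside the wild-type range. C3 was low in both, at 2.61 to 29.8 CPM in the wild type and 0.415 to 8.55 CPM in Apoe-/-.

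Metabolic and cell state genes were read next. All 38 oxidative phosphorylation genes had intervals within 1 of zero, and their median was -0.01 (-0.12 to 0.07 with 1 library left out). Of 22 glycolysis genes 6 were positive, with a median of -0.16 for the glycolysis list (-0.02 without wild-type pool 4 and -0.21 without wild-type pool 5). Slc16a3, which exports lactate, was at 74.0, 122, 131, 112 and 115 CPM in the wild type and 50.9 to 86.1 CPM (median 69.3) in Apoe-/- (-0.68 ± 0.22, unadjusted p = 0.00515 with edgeR, not called). In 3 of 6 Apoe-/- pools it was below the lowest wild-type pool. Of 28 cell cycle genes 6 were positive, and the median was -0.20 (-0.40 without wild-type pool 4 and -0.04 without wild-type pool 3). Top2a, a topoisomerase of dividing cells, was at 94.4, 67.7, 83.9, 2.17 and 33.8 CPM in the wild type and 10.7 to 50.7 CPM (median 27.0) in Apoe-/-. The 27 immediate early, 25 stress and chaperone and 23 oxidative stress and iron genes had medians of 0.03, -0.02 and -0.04. None of the genes in these 6 lists was called.

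Markers of the cells that a retinal sort could hold were summed in each library. The 10 microglia markers summed to 9498, 18923, 17614, 5459.7 and 9112 CPM in the wild type and to 7154 to 17335 CPM (median 11947) in Apoe-/-. The 12 rod photoreceptor markers were all higher in Apoe-/- (median 0.48, none called). Their sum was 1323, 2351, 1446, 6322 and 1923 CPM in the wild type and 2314 to 5118 CPM (median 3979.9) in Apoe-/-. Wild-type pool 4 had the highest rod sum of all, and without it the median difference was 1.06. Without Apoe-/- pool 5 the median difference was 0.32. Nr2e3, a transcription factor of rods, was at 16.2, 26.5, 14.2, 36.9 and 8.67 CPM against 14.1 to 75.6 CPM (median 49.0), a difference of 1.17 ± 0.44. RNA of photoreceptors was thus read in every pool of microglia, and whether its level bears on other differences was not tested. The 6 tested ganglion cell and neuron markers had a median of 0.79 and the 6 pigment epithelium markers of 0.37, and none of them was called.

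Monocyte markers had the lowest median of any list, -1.11, with 2 of 18 positive and none called. Their sum was 7430.3 CPM in wild-type pool 4, 1395 to 2972 CPM in the other wild-type pools and 922 to 2215 CPM (median 1767) in Apoe-/-. Without wild-type pool 4 the median was -0.07, with 9 of 18 positive, and without wild-type pool 2 it was -1.32, with 2 of 18 positive. The chemokine receptor Ccr2 was at 169.8, 37.4, 43.2, 493 and 153 CPM in the wild type and 42.0 to 132 CPM (median 80.1) in Apoe-/-, all inside the wild-type range (-1.13 ± 0.51). The chitinase-like gene Chil3 was at 145 CPM in wild-type pool 4 and at 4.86 to 17.6 CPM in the others, against 0 to 19.1 CPM in Apoe-/- (-2.82 ± 1.17). Chil3 was called by edgeR when no filter on low counts was applied (-2.78, adjusted p = 0.0117). The 12 border macrophage markers had a median of -0.59 (-0.36 without wild-type pool 4 and -0.77 without wild-type pool 5). The factor XIII gene F13a1 was at -1.32 ± 0.53 and the mannose receptor gene Mrc1 at -0.71 ± 0.50. Dendritic cell markers had a median of -0.42 over 16 genes, and of -0.69 without Apoe-/- pool 6. It became 0.94 without wild-type pools 4 and 5, which had the highest sums of their group, so that it had to rise. No red blood cell marker had enough reads to be tested in the reported fit. Without a filter on low counts, the globin genes Hbb-bs (-6.69, adjusted p = 0.0133) and Hba-a2 (-6.18, adjusted p = 0.0332) were called lower by edgeR. Small p-values were more common throughout in that setting.

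**Figure D5:**
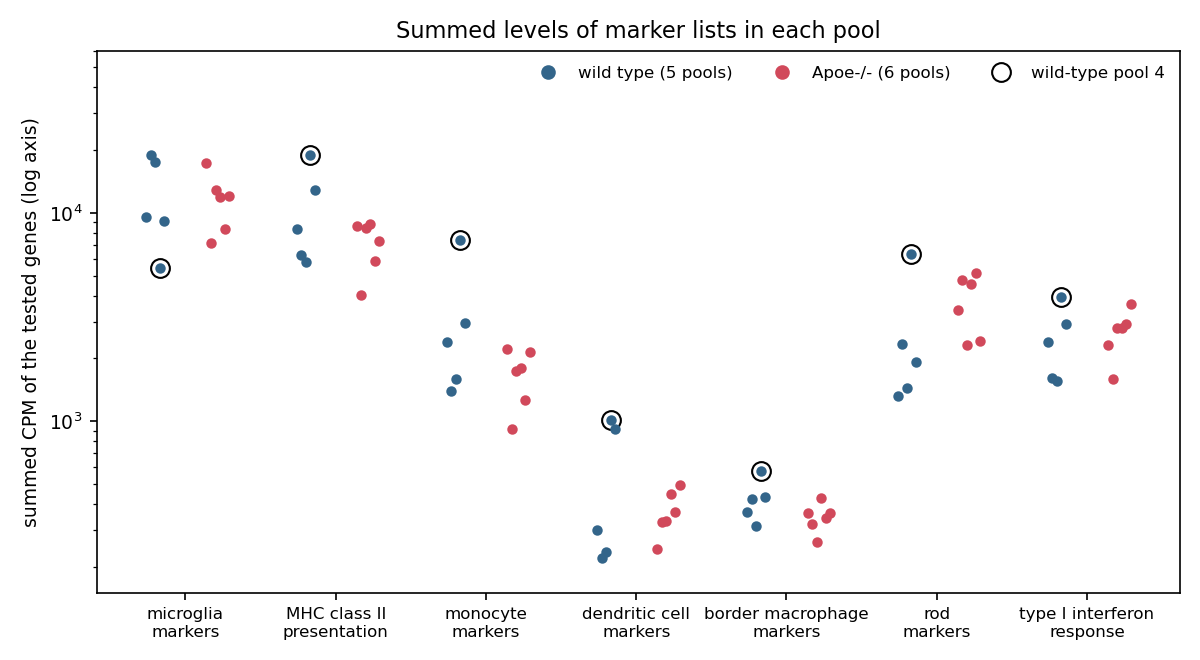
Summed CPM (log axis) of marker and immune gene lists, with 1 point per pool and a ring around wild-type pool 4. That pool has the lowest microglia sum (5459.7 CPM) and the highest rod (6322 CPM) and monocyte (7430.3 CPM) sums of the 11 pools.

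Outside the lists, the uncalled genes with at least 10 CPM whose groups did not overlap were 5 with higher and 15 with lower values in Apoe-/-. At any level, and with the called genes, such genes were 13 higher (0.105%) and 24 lower (0.193%) of 12415 tested. They are described 1 by 1 and were not tested as a set. Of the 15 lower ones, the 10 with the smallest p are described first. Highest by difference was 4931428F04Rik, at 4.10 to 10.4 CPM in the wild type and 12.0 to 20.2 CPM in Apoe-/- (1.21 ± 0.40). Zbtb14, a zinc finger transcription factor, was at 9.16, 7.85, 17.5, 15.2 and 13.4 CPM against 20.7 to 34.8 CPM (0.95 ± 0.32), and Taf7, a subunit of the general transcription factor TFIID, at 10.8 to 20.2 CPM against 20.8 to 34.5 CPM (0.67 ± 0.25). The remaining genes with higher values were the phosphatase gene Ppm1a (0.60 ± 0.31) and the tubulin-modifying Ttll4 (0.49 ± 0.31). Lowest was Sh3bp5l, at 21.1, 25.4, 32.4, 22.8 and 25.1 CPM in the wild type and 2.75 to 16.7 CPM (median 12.6) in Apoe-/- (-1.18 ± 0.34). Fbxo9, a ubiquitin ligase subunit, was at 18.6 to 47.7 CPM against 11.7 to 16 CPM (-1.03 ± 0.31), and Slc9a3r1, a membrane scaffold, at 21.7 to 32.9 CPM against 5.66 to 17.4 CPM (-0.96 ± 0.29). The ribosome assembly gene Utp18 (-0.94 ± 0.35), Zfp592 (-0.67 ± 0.28), the immunoglobulin superfamily gene Igsf8 (-0.65 ± 0.24), the exocyst subunit Exoc5 (-0.59 ± 0.20), the vesicle GTPase gene Rab4b (-0.43 ± 0.20), the actin-binding Cotl1 (-0.40 ± 0.17) and Ercc2 were the other genes of these 10. The 5 further genes, chosen after their values were seen, were Chd3 (-0.78), Prrc2b (-0.53), Naa15 (-0.52), Arf3 (-0.45) and Elk3 (-0.40). The smallest unadjusted p of any uncalled gene with edgeR was 0.000117, and the adjustment over 12415 genes left none of these past the threshold.

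The phagocytic sort of the same genotypes was fitted in the same model. There Apoe differed by -7.03 ± 0.43 (edgeR with Benjamini-Hochberg adjustment, adjusted p = 2.77e-11) and Slc1a5 by -2.74 ± 0.43 (adjusted p = 0.00405). The other genes called in the phagocytic sort were Gm1840, at 5.77 ± 0.87 (adjusted p = 0.00308), and Apoc2, at -4.39 ± 0.77 (adjusted p = 0.0152). For these the difference between the sorts was -2.19 ± 1.23 and 2.78 ± 1.01, neither called. The difference between the genotype effects of the sorts, non-phagocytic minus phagocytic, was 0.17 ± 0.53 for Apoe and -0.59 ± 0.60 for Slc1a5 (95% interval -1.83 to 0.64, unadjusted p = 0.335 with edgeR). This fit did not tie the sorts to each other by pool. Over all genes, 0 of 12415 (0%) differed between the sorts in their response to the genotype with edgeR, and 301 at an unadjusted p under 0.05. DESeq2, run without edgeR's filter on low counts, called 2 predicted genes, at the extreme values of -26.1 and -22.3. The fall of Slc1a5 was thus called in both sorts.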

How the data were processed

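RNA of 100 to 300 sorted cells per library was read by SMART-Seq2, per the labels' protocols and the authors' table header. The submitters' processing notes name Salmon 1.4.0, R 4.0.3, DESeq2 1.30.1 and mm10, without saying which step each served. The deposited files of each library give estimated counts and TPM per transcript, made by the authors, and the authors' deposited table gives FPKM. The estimated counts were summed per gene with GENCODE M21 (GRCm38), which matched 116072 of 116248 transcripts (the 176 others held 0.118% to 0.262% of reads), giving 35596 genes, and were rounded. TPM and FPKM served only in alternatives.

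One edgeR 4.0.16 quasi-likelihood model (R 4.3.3) with TMM scaling and 4 groups was fitted to all 22 libraries, after edgeR's filter on low counts, and the biological coefficient of variation was 0.426. The standard error is the log2 difference divided by the square root of F. The edgeR p-values were adjusted over 12415 genes, and those of alternatives over the genes each tested. Single values were tested by two-sided exact permutation over 462 arrangements. Replicates of a group differed by more than counting noise (chi-square over degrees of freedom 6.61 to 57.8), so none was merged.

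Genes named were those called, those with at least 10 CPM whose groups did not overlap (at most 10 a direction), a fixed set of key genes, and up to 4 genes per list with the smallest p. The gene lists (39) and named genes were chosen with earlier results of these data known. Alternatives were 21 other settings or sets of libraries and the removal of each of the 11 libraries. Where some non-phagocytic libraries were left out, all phagocytic libraries stayed in the fit. In 1 of the 21, a minimum of 10 CPM over 4 Y-linked genes, no library fell out, so it equals the reported fit. Some named genes are not reported here.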

Additional observations from a re-analysis of the deposited data

Results flagged for a closer look

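In 17 of 160 groups of pools, 1 pool lay further from the others than Dixon's 95% limit. For independent, normally distributed values that limit flags about 1 in 20 groups (8 of 160). These are CPM values of the same pools and partly of the same genes, so the 2 numbers are not a test against chance. Wild-type pool 4 accounted for 8 of them, always as the highest pool: its sums over lists were 2568 CPM for TGF-beta signalling (next highest 1918), 11192 CPM for glycolysis (7637), 6322 CPM for rod markers (2351), 285 CPM for cone markers (114), 7430.3 CPM for monocyte markers (2972) and 817 CPM for neutrophil markers (323), and Itgax was at 236 CPM (97.1) and Abcg1 at 87.8 CPM (31.2). Apoe-/- pool 2, with the highest share of satellite-like reads, accounted for 4: its MHC class I sum was the lowest at 2906 CPM (next 5016), its ganglion cell and neuron markers the highest at 238 CPM (next 125), its neutrophil markers the highest at 716 CPM (next 313), and its Itgax the lowest at 23.5 CPM (next 71.3).

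Wild-type pool 5 had the highest T and NK cell marker sum at 56.8 CPM (next 22.2), the highest Spp1 at 550.3 CPM (next 196), the highest Slc9a3r1 at 32.9 CPM (next 24.7) and the highest Ercc2 at 41.6 CPM (next 29.2), and the lowest summed Y-linked genes at 49.8 CPM (next 117). Apoe and Slc1a5 had no such pool in either genotype.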

How the results depend on the processing

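Apoe was called under all alternatives and Slc1a5 under all but 2, where 1 of the others kept every library and could not differ. Without a filter on low counts 16 genes were called, Apoe and Slc1a5 among them (3 higher, 32368 genes tested). There 3083 genes had an unadjusted p under 0.05 with edgeR, so small p-values were more common than in the reported fit. With limma on log2(FPKM + 0.1) of the authors' values 1 gene was called, Apoe (Slc1a5 at -3.33, adjusted p = 0.621), and with the pools that held Ddx3y and Eif2s3y again 1 gene, Apoe (Slc1a5 at -2.98, adjusted p = 0.157, an alternative chosen after seeing the data, with fewer samples). Leaving out each library gave 2 to 2 calls, with Apoe at -7.05 to -6.71. Under the other alternatives Apoe was at -7.19 to -6.67 (adjusted p at most 4.73e-06). For the difference between the sorts DESeq2, run without edgeR's filter on low counts, called 2 genes. These were the predicted genes Gm10222 and Gm48494, at the extreme values of -26.1 and -22.3, and the cause was not tested. Replicate numbers did not pair the libraries (correlations of same-numbered pools -0.12, -0.17, 0.19, 0.00 and 0.17), and the replicate block left 2 calls (Apoe at -6.85, Slc1a5 at -3.39). The uncalled key genes and those whose groups did not overlap at 10 CPM or more were 40 genes. Of their 1279 values, 1194 kept their direction, 85 changed sign and 0 were called. Genes named only from lists or after their values were seen are not in this count. Of these, Il12b, Chil3 and C5ar2 were called without a filter on low counts. Limma on TPM and FPKM moved the median of all genes to -0.29, and to -0.20 and -0.22. DESeq2 called 2 genes, with 775 at an unadjusted p under 0.05. Between the sorts, libraries of one genotype and number correlated at 0.04 to 0.42. The same number was the best match for wild-type pools 3, 4 and 5 and Apoe-/- pools 2, 3 and 6, and another number for the rest. Part of the pools may thus be pairs, which the reported fit did not use. A replicate block by pool, added after seeing the data, gave 0 calls for the difference between the sorts (440 at an unadjusted p under 0.05 with edgeR, Slc1a5 at -0.49 ± 0.50). Genes under 10 CPM had the widest intervals.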
